A study of Mus musculus with 15 samples.

Results

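The syndecan and glypican genes, which encode the cell-surface heparan sulfate proteoglycans, were followed across 5 groups of primary mouse chondrocytes. All probe sets that the platform annotation maps to Sdc1, Sdc2, Sdc3, Sdc4, Gpc1, Gpc2, Gpc3, Gpc4 and Gpc6 were taken, which gave 24 probe sets for 9 genes out of 45101 probe sets on the array. The chondrocytes came from the long bones of CD1 mouse embryos at embryonic day 15.5, were grown as monolayers in serum-containing medium and were treated for 24 h with LY294002 (an inhibitor of phosphoinositide 3-kinase, PI3K), UO126 (an inhibitor of the ERK-activating kinase MEK), SB202190 (an inhibitor of p38 MAP kinase) or Trichostatin A (TSA, an inhibitor of histone deacetylases), or with the vehicle DMSO. Each kinase inhibitor was used at 10 µM, and the dose of TSA is not given here because its unit in the labels was unclear. There were 3 Affymetrix whole-genome mouse arrays per group, and all 4 inhibitor groups were compared with the same 3 DMSO arrays. The study describes 3 independent experiments for the DMSO and LY294002 cultures, and its methods do not describe the arrays of the other inhibitors. The labels of 1 LY294002 array and 1 UO126 array give the incubation as up to 24 h. As pharmacological agents, these inhibitors can also act on other enzymes.

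Syndecans cross the membrane and end in a short cytoplasmic tail that binds PDZ proteins and the cytoskeleton, whereas glypicans are held in the outer leaflet of the membrane by a glycosylphosphatidylinositol anchor. Both carry heparan sulfate chains, which bind growth factors such as fibroblast growth factors, hedgehog proteins, bone morphogenetic proteins and Wnts and set how far these travel and how well they reach their receptors. In growth plate cartilage, heparan sulfate controls the spread of Indian hedgehog, and loss of glypican 3 or glypican 6 in people causes overgrowth or short-limbed skeletal disease.

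The values were MAS5 signals, a linear measure of probe set brightness in arbitrary units that was scaled to a trimmed mean of 150 on every array. Since each probe set has its own response to its target, signals were compared between groups and never between genes. A probe set was tested when its mean signal reached 50 in at least 1 of the 5 groups, which kept 21765 probe sets and 11751 genes. Of the 24 syndecan and glypican probe sets, 21 were tested, and 20 of these are annotated to a single gene. These 20 cover 8 of the 9 genes, since the only probe set specific to Gpc2 stayed under the threshold. Within groups, arrays correlated at 0.967 to 0.981 on the log2 scale. All 12 chondrocyte markers examined had mean signals of at least 50 in each group, whereas 4 of 5 endothelial markers (Cdh5, Emcn, Pecam1 and Tek) were under 50 in each group. Markers of other cell types also reached a mean of 50 with DMSO. These were 6 of 6 fibroblast, 6 of 6 skeletal muscle and 5 of 6 macrophage and leukocyte markers. So did 3 of 3 osteoblast markers on the array, 4 of 6 epithelial and 1 of 5 neuronal markers. The summed fibroblast signal was 12187 to 18211 on the DMSO arrays. The summed signal of the chondrocyte markers was 15433 to 17746 on the TSA arrays and 24488 to 38467 on the DMSO arrays, and 11 of the 12 fell with TSA, with a median log2 change of -1.59. The 3 neuronal markers tested, Nefl, Stmn2 and Tubb3, rose with TSA. The summed neuronal signal was 989 to 1273 on the TSA arrays and 176 to 295 on the DMSO arrays, with Rbfox3 and Snap25 under 50 in both groups. TSA also lowered 4 and raised 1 of 5 macrophage and leukocyte markers tested, lowered 2 of 3 osteoblast markers, lowered 3 and raised 1 of 6 fibroblast markers, raised 2 of 5 epithelial markers and lowered 3 of 6 skeletal muscle markers, the last with a summed signal of 242 to 305 on the TSA arrays and 509 to 992 on the DMSO arrays. These counts, and those of the chondrocyte and neuronal markers, stand beside 30.6% of all genes raised and 28.4% lowered with TSA. With UO126, 1 of the 12 chondrocyte markers was called, Col9a2, as higher, against 1.88% of all genes. The median log2 change over the 12 was 0.45, with a summed signal of 34957 to 48153 on the UO126 arrays. In cultures of this kind, fewer cells of a type and less RNA per cell cannot be told apart, and the part of any of these shifts in the syndecan and glypican values was not tested.

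A gene was called when the adjusted p of its representative probe set, the 1 with the highest mean log2 signal, was under 0.05 (limma, Benjamini-Hochberg adjustment over all probe sets tested). With LY294002, 3 of the 8 genes were called, against 9.47% of all genes. Gpc3 and Gpc4 were higher, against 5.63% of all genes, and Gpc1 was lower, against 3.84%. With UO126, Gpc4 alone was called, against 3.45% of all genes, and was higher, against 1.88% of all genes. With SB202190, Gpc1 alone was called, against 3.52% of all genes, and was lower, against 1.51% of all genes. With TSA, 6 of the 8 genes were called, against 58.9% of all genes, so that a call with TSA does not set a gene apart. Gpc3 and Gpc4 were higher, against 30.6% of all genes, and Sdc2, Sdc3, Gpc1 and Gpc6 were lower, against 28.4%. Among the 20 single-gene probe sets the counts were 4, 1, 1 and 14 with LY294002, UO126, SB202190 and TSA, against 7.78%, 2.68%, 2.84% and 54.7% of all probe sets. The 3 arrays of an inhibitor lay outside the range of the 3 DMSO arrays for 3, 2, 1 and 7 of the 8 genes in the same order of inhibitors, against 28.6%, 19.2%, 23.1% and 63.3% of all genes. The median log2 change of the 8 genes was 0.06, 0.24, -0.15 and -0.23, beside 0.01, 0.01, 0.03 and 0.00 over all genes.

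**Figure D1:**
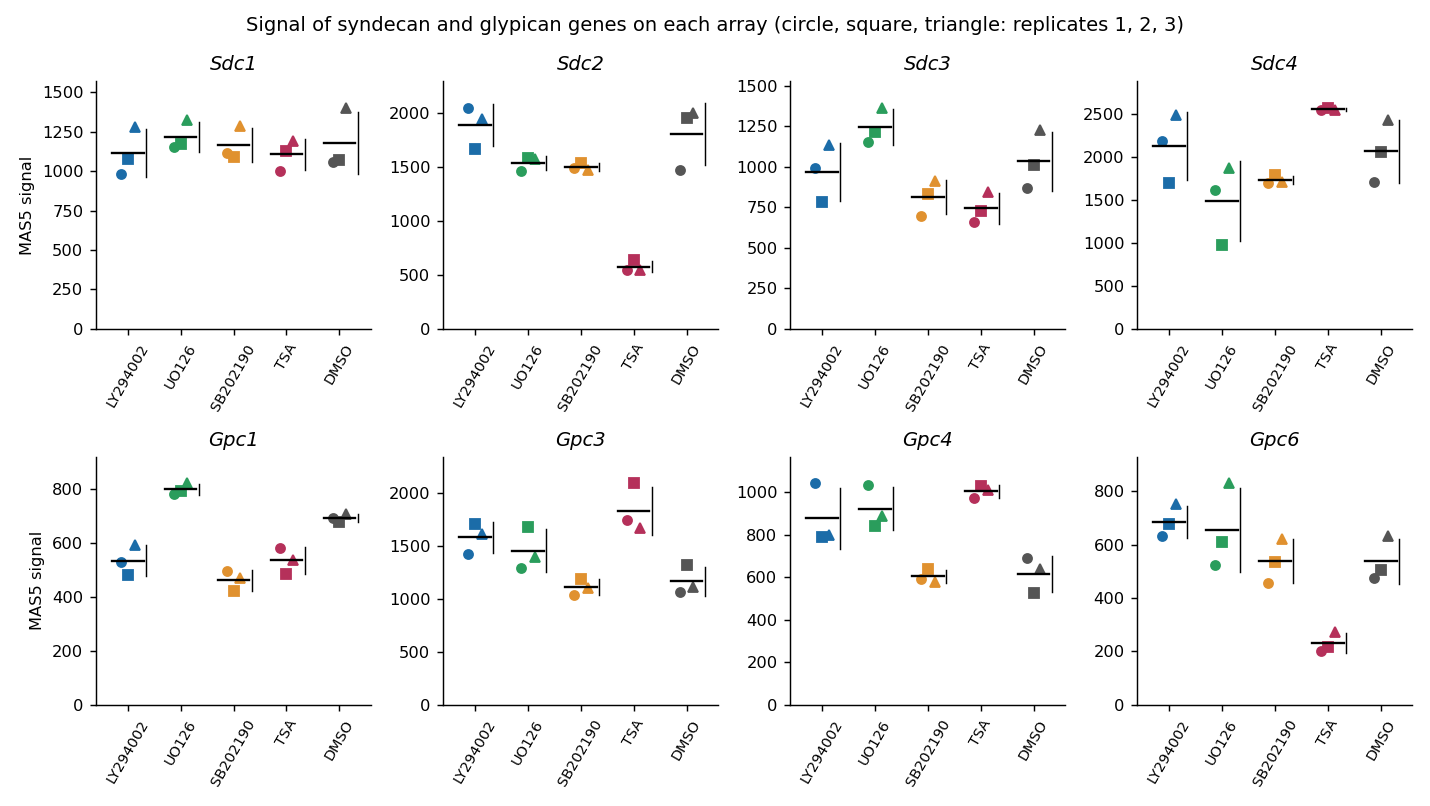
MAS5 signal (vertical axis, arbitrary units, from 0) of the representative probe set of each syndecan and glypican gene on the 3 arrays of each group; horizontal bars are group means, vertical lines are ± SD (n = 3), and circles, squares and triangles are replicates 1, 2 and 3. Sdc2 and Gpc6 sit far lower on the TSA arrays than on any other, Gpc4 is high on the LY294002, UO126 and TSA arrays, and Gpc1 is highest on the UO126 arrays.

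Of the 4 syndecan genes, Sdc2 and Sdc3 fell with TSA, and 0 were called with any kinase inhibitor by limma. At an unadjusted p under 0.05 the counts were 0 with LY294002, 1 with UO126 and 2 with SB202190. Over all 21765 probe sets tested, 5252, 3029 and 3534 had such a p with these inhibitors. Sdc2, a transmembrane syndecan abundant in mesenchymal cells, lies at chr15:32920723-33034721 (GRCm38.p6, as are all positions given). Its signal was 545, 638 and 544 on the TSA arrays, against 1469, 1948 and 1994 on the DMSO arrays. The 3 TSA arrays were all below the lowest DMSO array. The log2 change was -1.64 ± 0.11 (SE, n = 3 arrays per group, adjusted p = 1.11e-08), which is a 3.11-fold reduction. The 2 other tested probe sets of Sdc2 had log2 changes of -1.22 and -1.55 with TSA, and the remaining probe set was under 50 in all groups. With the kinase inhibitors, Sdc2 had 2049, 1668 and 1945 with LY294002, 1463, 1582 and 1570.1 with UO126, and 1486, 1538 and 1469.7 with SB202190. In the representative probe set these arrays overlapped the DMSO range in each case, with log2 changes of 0.07, -0.22 and -0.26 and adjusted p of 0.745, 0.421 and 0.271. The SB202190 value passed the threshold only without DMSO replicate 1 (log2 change -0.40, adjusted p = 0.0445, in a range of 0.0445 to 0.566 over 16 settings). Probe set 1448545_at was wholly below its DMSO range of 1334 to 1588 with UO126 (1147 to 1211) and SB202190 (1142 to 1293). Probe set 1417012_at was wholly above its DMSO range of 699 to 802 with LY294002 (859 to 882). None of these differences passed the test without the replicate number as a block, and in their other comparisons with kinase inhibitors both probe sets overlapped DMSO. With that block, a second probe set of Sdc2 was called with UO126, as given in the last section. An absolute log2 change of at least 1 that was also called was found with TSA for Sdc2 and Gpc6 among the 8 genes, against 19.5% of all genes.

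Sdc3, a syndecan of neural tissue and developing cartilage that binds heparin-binding growth factors, lies at chr4:130792537-130826318. Its signal was 659, 729.5 and 846 on the TSA arrays and 867, 1012 and 1229 on the DMSO arrays. The groups did not overlap, and the log2 change was -0.47 ± 0.15 (SE, adjusted p = 0.0157). A second probe set fell by 0.69 (adjusted p = 0.0168), with 1 TSA array at 217 inside the DMSO range of 199.7 to 261, and the third was at -0.33 without passing the test (adjusted p = 0.0578). The call of the representative ended without DMSO replicate 3 (adjusted p = 0.0855) or TSA replicate 1 (0.0723), in a range of 0.000896 to 0.0855 over 16 alternative settings. The call of the second probe set ended without DMSO replicate 3 (0.065), TSA replicate 1 (0.0569) or TSA replicate 2 (0.102), in a range of 0.000438 to 0.102 over 15 settings.

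With the kinase inhibitors the probe sets of Sdc3 differed among themselves. With LY294002 the representative had 991, 782 and 1137, which overlapped DMSO and gave a log2 change of -0.10 ± 0.15 (SE, adjusted p = 0.75). The third probe set, 1420853_at, was at 85.4, 90.7 and 104 with LY294002, against 144, 164 and 124 with DMSO. Its groups did not overlap, and it fell by 0.62 ± 0.14 on the log2 scale (SE, adjusted p = 0.0151). This call ended under median centring of the arrays (adjusted p = 0.0513), in a fit of the 2 groups alone (0.0816), and without DMSO replicate 2 (0.0681), LY294002 replicate 1 (0.0602) or LY294002 replicate 2 (0.0533), in a range of 0.0105 to 0.0816 over 15 settings. With UO126 the representative was at 1152, 1219 and 1367 (log2 change 0.28, adjusted p = 0.456), whereas 1420853_at was at -0.32 (adjusted p = 0.315). SB202190 gave 699, 834 and 910.5 (log2 change -0.34, adjusted p = 0.276).

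Sdc4, the syndecan of focal adhesions, lies at chr2:164424247-164443188. Its signal was 2545, 2578 and 2550.3 on the TSA arrays, close to one another, and 1706, 2065 and 2437 on the DMSO arrays. All TSA arrays were above the highest DMSO array, but the log2 change of 0.32 ± 0.19 (SE) did not pass the test (adjusted p = 0.175). With UO126 the signal was 1622, 974 and 1875, and with a log2 change of -0.51 ± 0.19 (SE) it did not pass either (adjusted p = 0.225). LY294002 gave 2189, 1705 and 2490.5 and SB202190 gave 1702, 1787 and 1717, both overlapping DMSO, with log2 changes of 0.04 and -0.24. The second probe set of Sdc4, 1417654_at, had a signal of 593 on DMSO replicate 2, against 95.0 and 86.0 on the other DMSO arrays and 63.8 to 149 on the 12 inhibitor arrays. Its 4 log2 changes ran from -1.22 to -0.80, and none passed the test (adjusted p = 0.182 to 0.575).

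Sdc1, the syndecan best known from epithelia and plasma cells, lies at chr12:8771396-8793716 and was the member with the smallest differences in its representative probe set. Its signal was 984, 1081 and 1281 with LY294002, 1155, 1173 and 1325 with UO126, 1118, 1092 and 1290.0 with SB202190, 999, 1130.5 and 1194 with TSA, and 1060.3, 1071 and 1404 with DMSO. The 5 groups overlapped, and the 4 log2 changes lay between -0.08 and 0.06. Intervals of the differences reached from -0.33 to 0.30 on the log2 scale. Of the 3 other probe sets, 1415944_at was called with TSA, at 165, 169 and 141 against 222, 203 and 187 with DMSO (log2 change -0.37 ± 0.12, SE, adjusted p = 0.0142). That call ended with median centring (adjusted p = 0.0522) and without DMSO replicate 1 (0.0608) or TSA replicate 3 (0.069), in a range of 0.0107 to 0.069 over 15 settings. Probe set 1415944_at was also below the DMSO range with LY294002, at 176, 161 and 150, but did not pass the test there.

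**Figure D2:**
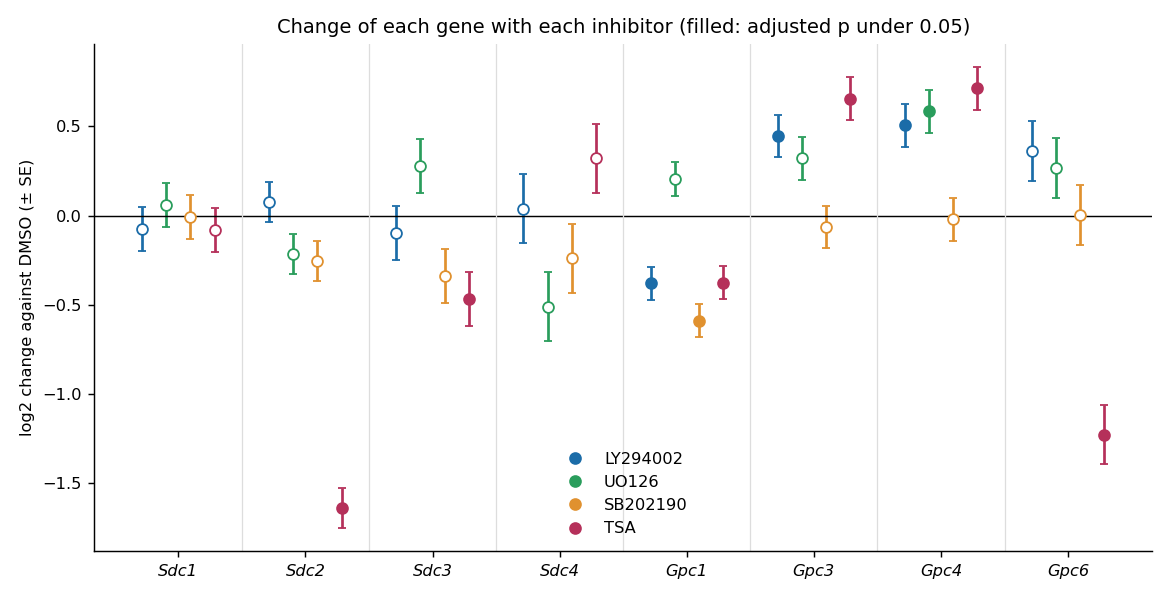
log2 change against DMSO (vertical axis) of the representative probe set of each gene with LY294002, UO126, SB202190 and TSA; points are limma estimates over 3 arrays per group, lines are ± SE, and filled points had an adjusted p under 0.05. The TSA changes of Sdc2 (-1.64) and Gpc6 (-1.23) are the only ones beyond 1 in either direction, Gpc4 is filled above 0 for 3 inhibitors, and Gpc1 is filled below 0 for 3 inhibitors.

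Among the glypicans, TSA lowered Gpc6 and Gpc1 and raised Gpc3 and Gpc4. Gpc6, a glypican of the developing skeleton and the gene mutated in recessive omodysplasia in people, lies at chr14:116924920-117979529. Its signal was 202, 216 and 272 on the TSA arrays, against 474, 506 and 633 on the DMSO arrays. All TSA arrays were below all others in the series, and the log2 change was -1.23 ± 0.17 (SE, adjusted p = 1.57e-05), a 2.34-fold reduction. The 3 other tested probe sets had log2 changes of -1.66, -1.73 and -1.70 with TSA, where the probe set at -1.73, 1437417_s_at, is of the array's class that can match several related transcripts. The dimmest of them, 1419689_at, was at 49.7, 31.6 and 43.5 with TSA and 138, 116 and 146 with DMSO. The fifth probe set was under 50 in all groups. These Gpc6 calls and those of the 3 Sdc2 probe sets held under all 15 or 16 alternative settings run for them.

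LY294002 moved Gpc6 the other way without passing the test. Its signal was 632, 676 and 751 with LY294002, and the lowest of these fell just inside the DMSO range, with a log2 change of 0.36 ± 0.17 (SE, adjusted p = 0.202). With the replicate number as a block the adjusted p was 0.00901 (range 0.00901 to 0.39 over 16 settings), and that of the probe set 1437417_s_at (log2 change 0.42) was 0.0255. UO126 gave 524, 610.2 and 829.9 (log2 change 0.27, adjusted p = 0.53) and SB202190 gave 457, 536 and 620.5 (log2 change 0.00, adjusted p = 0.999), both overlapping DMSO in the representative. With LY294002 the other tested probe sets of Gpc6 lay wholly above DMSO, but none passed the test without the block. Probe set 1428774_at was at 686 to 716 against 532 to 598 with DMSO. Probe set 1437417_s_at was at 550 to 637 against 395 to 489, and 1419689_at at 156 to 159 against 116 to 146. UO126 also put 1428774_at above DMSO, at 625 to 751, without a call.

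Gpc1, the glypican found widely in embryonic tissues, lies at chr1:92831645-92860211 and was measured by 1 probe set. Its DMSO arrays were tightly grouped at 691, 677 and 706. With SB202190 the signal was 495, 419 and 467, with LY294002 529.6, 478 and 591, and with TSA 581, 483 and 537, so that the 9 arrays were all below the DMSO range. The log2 change was -0.59 ± 0.09 with SB202190 (SE, adjusted p = 0.00325), -0.38 ± 0.09 with LY294002 (adjusted p = 0.0229) and -0.38 ± 0.09 with TSA (adjusted p = 0.00288). UO126 gave 779.8, 790.4 and 819, all above the DMSO range, but the log2 change of 0.20 ± 0.09 (SE) did not pass the test (adjusted p = 0.336). Median centring aligned the arrays on the median of all their probe sets, tested or not. Array medians lay at 29.8 to 40.0, under the signal of 50 used as the filter. Centring moved the median log2 change of all tested probe sets with LY294002 by over 0.1, to 0.12, and gave a log2 change of -0.25 for Gpc1 (adjusted p = 0.301). The LY294002 call also ended in a fit of the 2 groups alone (0.0851) and without DMSO replicate 2 (0.0531), DMSO replicate 3 (0.0726), LY294002 replicate 1 (0.0631) or LY294002 replicate 2 (0.0964), in a range of 0.0062 to 0.301 over 15 settings, and the SB202190 call ended with median centring (0.0714, range 0.000596 to 0.0714).

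Gpc3 and Gpc4 rose together with LY294002 and with TSA. They are neighbours on the X chromosome and lie on the same strand, Gpc4 at chrX:52051007-52164923 and Gpc3 at chrX:52272426-52613974, with 107502 bases and 0 other protein-coding genes annotated between them. Glypican 3 restrains hedgehog signalling and body growth, and its loss in people causes Simpson-Golabi-Behmel overgrowth syndrome. Glypican 4 acts in fibroblast growth factor and Wnt signalling in vertebrate embryos. Because these genes moved together, the 250 bases before the annotated start of each are shown as RefSeq gives them (GRCm38.p6, minus strand, read 5′ to 3′), at chrX:52613975-52614224 for Gpc3 and chrX:52164924-52165173 for Gpc4, with matches to the searched motifs in capitals.
Gpc3 promoter: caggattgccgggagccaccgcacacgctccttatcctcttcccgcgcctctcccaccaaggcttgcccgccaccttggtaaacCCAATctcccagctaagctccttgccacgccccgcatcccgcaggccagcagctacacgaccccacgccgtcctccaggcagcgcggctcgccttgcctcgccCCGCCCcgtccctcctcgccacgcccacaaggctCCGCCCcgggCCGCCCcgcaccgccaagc
Gpc4 promoter: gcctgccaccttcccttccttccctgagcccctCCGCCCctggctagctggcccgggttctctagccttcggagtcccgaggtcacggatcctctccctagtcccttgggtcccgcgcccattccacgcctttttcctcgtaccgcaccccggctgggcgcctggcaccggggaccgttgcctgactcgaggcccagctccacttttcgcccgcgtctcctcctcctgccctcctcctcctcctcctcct
The motifs searched on both strands were the GC box (GGGCGG), the CCAAT box (CCAAT), the TATA box (TATAAA) and a FoxO site (GTAAACA), which are found in 33.0%, 33.8%, 12.3% and 3.17% of 32536 windows of this length. Gpc3 held 3 GC boxes and 1 CCAAT box and Gpc4 held 1 GC box, with no overlap between matches, and neither window held the TATA or FoxO letters. G and C made up 71.6% of the Gpc3 window and 68.4% of the Gpc4 window. RefSeq windows were at hand for 6 of the 9 genes, and the matches were not particular to Gpc3 and Gpc4. Sdc1 held 3 GC boxes and 1 CCAAT box, and Gpc2 held 3 GC boxes and 2 CCAAT boxes. Sdc3 held 3 GC boxes and Sdc4 held 4, without a CCAAT box. G and C made up 66.0%, 66.4%, 76.4% and 68.0% of the windows of Sdc1, Gpc2, Sdc3 and Sdc4.

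Gpc3 signal was 1426, 1712 and 1609 on the LY294002 arrays, against 1063, 1320.0 and 1110.2 on the DMSO arrays. All LY294002 arrays exceeded the highest DMSO array, and the log2 change was 0.44 ± 0.12 (SE, adjusted p = 0.0326). TSA gave 1744, 2093 and 1666, again all above DMSO, with a log2 change of 0.66 ± 0.12 (SE, adjusted p = 0.000236), a 1.57-fold rise. UO126 gave 1289, 1682 and 1397, where the lowest array lay within the DMSO range, and the log2 change of 0.32 ± 0.12 (SE) passed the test only with the replicate number as a block (adjusted p = 0.0147 with it and 0.215 without it, in a range of 0.0147 to 0.527 over 15 settings). SB202190 gave 1039, 1188 and 1104, which overlapped DMSO (log2 change -0.06, adjusted p = 0.862). The TSA call held under the 15 settings run. The LY294002 call ended with no filter on signal (adjusted p = 0.0654), with no variance trend (0.06), in a fit of the 2 groups alone (0.0826), and without DMSO replicate 1 (0.079), DMSO replicate 3 (0.101), LY294002 replicate 2 (0.115) or LY294002 replicate 3 (0.0854), in a range of 0.0013 to 0.115 over 15 settings.

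Gpc4 was the member that rose with 3 of the 4 inhibitors. Its signal was 1042, 789 and 799 with LY294002, 1035, 842 and 887 with UO126, and 971, 1027 and 1012 with TSA, against 690.1, 523 and 637 with DMSO. Each of these 9 arrays was above the highest DMSO array. The log2 change was 0.50 ± 0.12 with LY294002 (SE, adjusted p = 0.0194), 0.58 ± 0.12 with UO126 (adjusted p = 0.0145) and 0.71 ± 0.12 with TSA (adjusted p = 0.000119). SB202190 gave 593, 639 and 579, within the DMSO range, with a log2 change of -0.02 (interval of ± 2 SE, -0.26 to 0.22). The second probe set, 1436514_at, rose 2.01-fold with TSA, at 199.7, 237 and 230.2 against 109, 128 and 96.4 with DMSO (log2 change 1.01 ± 0.13, SE, adjusted p = 9.95e-06). It was at 0.32 with LY294002 and 0.22 with UO126 without passing the test (adjusted p = 0.143 and 0.501). The LY294002 call of the representative ended in a fit of the 2 groups alone (adjusted p = 0.1) and without DMSO replicate 2 (0.086) or LY294002 replicate 1 (0.0815), in a range of 0.0075 to 0.1 over 16 settings, and the UO126 call ended with median centring (0.12), in a fit of the 2 groups alone (0.0779) and without DMSO replicate 2 (0.0739) or UO126 replicate 1 (0.0678), in a range of 0.00489 to 0.12.

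Gpc2, a glypican of the developing nervous system at chr5:138273657-138280026, had no probe set of its own above the threshold. The probe set annotated to it alone was at 26.6, 33.1 and 24.2 with TSA, 9.05, 8.51 and 0.653 with DMSO and no higher than 20 with the kinase inhibitors. These signals were all under the value of 50 that the study used for reliable signal, and no difference was tested. A second probe set is annotated to both Gpc2 and Gal3st4, a sulfotransferase gene. It was at 13.4, 27.8 and 20.3 with TSA, against 46.5, 36.8 and 48.6 with DMSO (log2 change -1.15 ± 0.28, SE, adjusted p = 0.0027), and which of the genes it measured is not known. Its group means were under 50 with both TSA (20.5) and DMSO (43.9), and it was tested only because it reached 57.9 with UO126. Gpc5, the remaining glypican, had no tested probe set annotated to it alone.

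**Figure D3:**
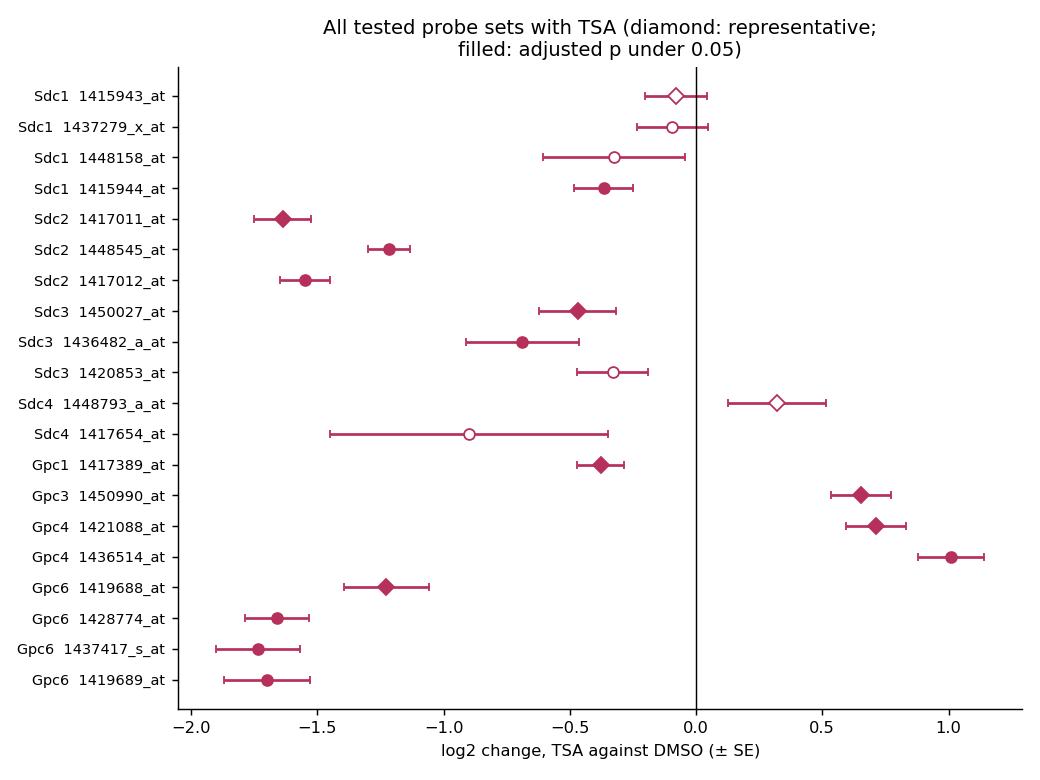
log2 change with TSA against DMSO (horizontal axis) of the 20 tested single-gene probe sets; points are limma estimates over 3 arrays per group, lines are ± SE, diamonds mark representatives and filled symbols had an adjusted p under 0.05. The 3 Sdc2 and 4 Gpc6 probe sets all lie below -1, the 2 Gpc4 probe sets lie above 0.7, and the 2 Sdc4 probe sets fall on opposite sides of 0.

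Ordering the 5 groups by level gave 32 pairs of neighbours for the 8 genes, of which 4 differed. For Sdc2 the order ran TSA, SB202190, UO126, DMSO, LY294002 from low to high, and only the step between TSA and SB202190 passed the test (log2 difference 1.38, adjusted p = 7.58e-08). For Gpc6 the order was TSA, DMSO, SB202190, UO126, LY294002, and only TSA and DMSO differed. For Gpc1 the order was SB202190, LY294002, TSA, DMSO, UO126, with a step between TSA and DMSO. For Gpc4 it was SB202190, DMSO, LY294002, UO126, TSA, with a step between DMSO and LY294002. For Gpc3 (SB202190, DMSO, UO126, LY294002, TSA), Sdc1 (TSA, LY294002, SB202190, DMSO, UO126), Sdc3 (TSA, SB202190, LY294002, DMSO, UO126) and Sdc4 (UO126, SB202190, DMSO, LY294002, TSA) no neighbouring groups passed the test. With the replicate number as a block, Gpc3 in UO126 against DMSO passed it (log2 change 0.32, adjusted p = 0.0147).

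The inhibitors were then compared with one another in the same fit. Gpc1 separated UO126 from the other kinase inhibitors. It was higher with UO126 than with SB202190 by 0.79 ± 0.09 on the log2 scale (SE, adjusted p = 7.8e-05), and lower with LY294002 than with UO126 by -0.58 ± 0.09 (adjusted p = 0.00185), although median centring left the second at an adjusted p of 0.0649 (range 0.000377 to 0.0649). Gpc4 was higher with UO126 than with SB202190 by 0.61 ± 0.12 (adjusted p = 0.00479), again lost with median centring (0.0675, range 0.00166 to 0.0675). LY294002 exceeded SB202190 for Gpc4 by 0.53 ± 0.12 (adjusted p = 0.0162) and for Gpc3 by 0.51 ± 0.12 (adjusted p = 0.0184). LY294002 and UO126 were not told apart for Gpc4 (log2 difference -0.08, interval of ± 2 SE, -0.32 to 0.16) or Gpc3 (0.13, interval -0.11 to 0.36). Sdc3 was higher with UO126 than with SB202190 by 0.62 ± 0.15 (adjusted p = 0.0189). Called genes numbered 1, 2 and 3 of 8 for LY294002 against UO126, LY294002 against SB202190 and UO126 against SB202190, beside 8.18%, 7.38% and 9.77% of all genes. With the replicate number as a block, Sdc3 (log2 difference -0.37, adjusted p = 0.0251) and Sdc4 (0.55, adjusted p = 0.0493) also differed between LY294002 and UO126.

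TSA stood below each kinase inhibitor for Sdc2 and Gpc6. The log2 differences were -1.71, -1.42 and -1.38 for Sdc2 and -1.59, -1.5 and -1.23 for Gpc6 against LY294002, UO126 and SB202190, with adjusted p of at most 1.77e-05. Sdc4, which did not pass the test against DMSO, was higher with TSA than with UO126 by 0.83 ± 0.19 (SE, adjusted p = 0.00184) and than with SB202190 by 0.56 ± 0.19 (adjusted p = 0.0239). Gpc3 was higher with TSA than with SB202190 by 0.72 (adjusted p = 0.000108) and than with UO126 by 0.34 (adjusted p = 0.0253). Gpc4 was higher with TSA than with SB202190 by 0.73 (adjusted p = 9.86e-05) but did not differ at this threshold from LY294002 or UO126 (0.21 and 0.13). Sdc3 and Gpc1 were lower with TSA than with UO126, by -0.75 (adjusted p = 0.000623) and -0.58 (adjusted p = 7.38e-05). Sdc3 was also lower with TSA than with LY294002 (-0.37, adjusted p = 0.0498). Called genes numbered 3, 6 and 5 of 8 against LY294002, UO126 and SB202190, beside 58.4%, 59.6% and 56.9% of all genes. With the replicate number as a block, Gpc1 was also higher with TSA than with SB202190 (log2 difference 0.21, adjusted p = 0.0269, against 0.0678 without it).

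Leaving out single arrays ended some of these calls between inhibitors. For Gpc4 in LY294002 against SB202190 these were LY294002 replicate 1 (adjusted p = 0.0727), SB202190 replicate 1 (0.0603) and SB202190 replicate 3 (0.0601), beside median centring (0.0657), in a range of 0.00588 to 0.0727. For Gpc3 in LY294002 against SB202190 these were LY294002 replicates 2 (0.0792) and 3 (0.0617) and SB202190 replicates 1 (0.0834) and 3 (0.0558), in a range of 0.000419 to 0.0834. For Gpc3 in TSA against UO126 these were UO126 replicates 1 (0.116) and 3 (0.0716) and TSA replicate 2 (0.128), in a range of 0.000712 to 0.128. For Sdc3 in UO126 against SB202190 these were UO126 replicate 3 (0.0881) and SB202190 replicate 1 (0.102), beside median centring (0.0656), in a range of 0.000877 to 0.102. For Sdc3 in TSA against LY294002 these were LY294002 replicates 1 (0.114) and 3 (0.214) and TSA replicates 1 (0.179) and 2 (0.105), and 4 other settings gave 0.053 to 0.0911, in a range of 0.00481 to 0.214. For Sdc4 in TSA against SB202190 these were SB202190 replicates 1 (0.0593) and 3 (0.0559) and TSA replicates 1 (0.0531), 2 (0.0553) and 3 (0.0515), beside median centring (0.0578), in a range of 9.45e-05 to 0.0593.

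The genes that make and edit heparan sulfate were followed as the background to these core proteins. TSA raised 5 and lowered 6 of the 19 genes measured out of 23 listed, against 30.6% and 28.4% of all genes, so that the share called was near the background. The median log2 change was -0.19, beside 0.00 over all genes. The genes that rose included Ext1, a subunit of the heparan sulfate polymerase, at 907 with TSA against 523 with DMSO (log2 change 0.80 ± 0.08, SE, adjusted p = 3.51e-07). The other 4, named after their values were seen, were Ext2 (the second polymerase subunit), Glce (the epimerase), Hs2st1 (the 2-O-sulfotransferase) and Hs6st1 (a 6-O-sulfotransferase), with log2 changes of 0.46, 0.64, 0.59 and 0.47. Both extracellular 6-O-endosulfatases fell, Sulf2 to 263 against 906 (log2 change -1.79 ± 0.09, SE, adjusted p = 4.65e-10) and Sulf1 to 344 against 780.4 (-1.18 ± 0.11, adjusted p = 3.4e-07). Hs6st2, another 6-O-sulfotransferase, was at 464 with TSA against 1168 with DMSO (-1.33 ± 0.08, SE, adjusted p = 2.56e-09). The other 3 that fell, named in the same way, were Ndst2 (an N-deacetylase and N-sulfotransferase) and the linkage-region enzymes B4galt7 and B3gat3, with log2 changes of -1.30, -0.85 and -0.54. With LY294002 only B3galt6, a linkage-region galactosyltransferase, was called, as higher (log2 change 0.63 ± 0.14, SE, adjusted p = 0.0128). This call among 19 genes stands beside 5.63% of all genes raised with LY294002. With the replicate number as a block, 3 genes were called. UO126 and SB202190 gave 0 calls in this list by limma, with 2 genes each at an unadjusted p under 0.05, and UO126 gave 1 call with the block. Over all 21765 probe sets tested, 3029 and 3534 had such a p with UO126 and SB202190.

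**Figure D4:**
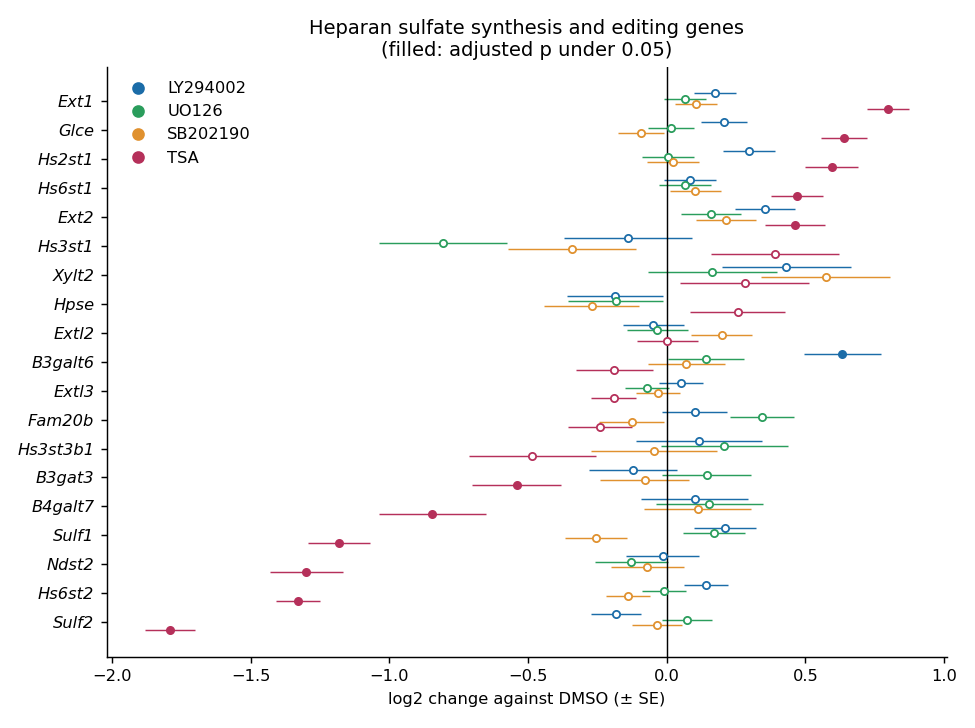
log2 change against DMSO (horizontal axis) of the 19 measured heparan sulfate synthesis and editing genes with LY294002, UO126, SB202190 and TSA, ordered by the TSA change; points are limma estimates over 3 arrays per group, lines are ± SE, and filled points had an adjusted p under 0.05. The TSA points spread from 0.80 for Ext1 to -1.79 for Sulf2, and 1 point of a kinase inhibitor is filled, that of B3galt6 with LY294002.

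Of 7 other proteoglycans that carry or can carry heparan sulfate, TSA raised 3 and lowered 2, against 30.6% and 28.4% of all genes. Agrn, the basement membrane proteoglycan agrin, was at 783 with TSA against 205 with DMSO (log2 change 1.94 ± 0.11, SE, adjusted p = 1e-09). Col18a1, the collagen XVIII chain, was at 615 against 246 (1.31, adjusted p = 2.42e-06) and Srgn, serglycin, at 310.4 against 95.9 (1.75, adjusted p = 2.33e-05), whereas Nrp1, neuropilin 1, was at 714 against 1139 (-0.67, adjusted p = 0.000171). LY294002 raised Agrn to 337 against 205 with DMSO (log2 change 0.73, adjusted p = 0.00123) and lowered Col18a1 to 123 against 246 (-1.0, adjusted p = 0.00143) and the hyaluronan receptor Cd44 to 1182 against 1512 (-0.35, adjusted p = 0.0203). UO126 lowered Cd44 (log2 change -0.53, adjusted p = 0.00231) and the betaglycan gene Tgfbr3 (-0.55, adjusted p = 0.00914), with 1 gene called after median centring and 5 with the block. Over all genes, 9.47% were called with LY294002 and 3.45% with UO126. SB202190 gave 0 calls of 7 by limma and 3 genes at an unadjusted p under 0.05, beside 3534 of all 21765 probe sets.

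Of 8 measured genes for shedding and release of the core proteins, TSA raised 4 and lowered 2, against 30.6% and 28.4% of all genes. Mmp14, a membrane metalloproteinase that cleaves syndecan 1, was at 186 with TSA against 1307 with DMSO (log2 change -2.83 ± 0.21, SE, adjusted p = 2.01e-08). The sheddase Adam17 was at 734 against 381 (0.94, adjusted p = 1.72e-07) and the sheddase inhibitor Timp3 at 4101 against 2434 (0.77, adjusted p = 0.000513). Mmp7 was at 13.1 against 45.0 (-1.80, adjusted p = 0.00107), under 50 in both. LY294002 raised Adam17 (0.33, adjusted p = 0.0249) and Adam10 (0.37, adjusted p = 0.0414), both lost with median centring. UO126 lowered Mmp9 to 27.6 against 56.3 (-1.02, adjusted p = 0.00918), where the UO126 mean was under 50 and the DMSO mean just above it. Over all genes, 9.47% were called with LY294002 and 3.45% with UO126. SB202190 gave 0 calls by limma and 4 genes at an unadjusted p under 0.05, beside 3534 of all 21765 probe sets. Notum, which encodes an enzyme first described as a glypican-releasing factor in Drosophila, rose to 220.5 with TSA against 131 (0.79, adjusted p = 0.00712) and was named after its values were seen.

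Of 10 measured cytoplasmic partners of the syndecans, TSA raised 4 and lowered 3, against 30.6% and 28.4% of all genes. Ezr, which encodes the membrane-to-actin linker ezrin, was at 1375 with TSA against 668 with DMSO (log2 change 1.04 ± 0.09, SE, adjusted p = 1.2e-07), and Gipc1, which encodes a PDZ protein that binds syndecan 4, at 549 against 346 (0.68, adjusted p = 0.000119). Pdcd6ip, which encodes the ESCRT-associated protein ALIX that binds syntenin, was at 604 against 977 (-0.69, adjusted p = 1.68e-05), and Prkca, which encodes the protein kinase C isoform that syndecan 4 engages, at 243 against 372 (-0.62, adjusted p = 8.79e-05). UO126 lowered Ezr (-0.40, adjusted p = 0.0233) and Prkca (-0.41, adjusted p = 0.0414), with 0 genes called after median centring and 1 after quantile normalization. Over all genes, 3.45% were called with UO126. LY294002 and SB202190 gave 0 calls of 10 by limma, with 0 and 3 genes at an unadjusted p under 0.05, beside 5252 and 3534 of all 21765 probe sets.

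Among 16 measured heparan sulfate-binding ligands, TSA raised 5 and lowered 8, against 30.6% and 28.4% of all genes, with a median log2 change of -0.28 beside 0.00 over all genes. Fgf7 was at 56.7 with TSA against 519 with DMSO (log2 change -3.21 ± 0.17, SE, adjusted p = 5.82e-10) and the chemokine Cxcl12 at 241 against 607 (-1.33, adjusted p = 2.47e-09). Hbegf, which encodes a heparin-binding epidermal growth factor family ligand, was at 943 against 251 (1.90, adjusted p = 4.58e-08) and Bmp2 at 346 against 84.6 (2.06, adjusted p = 4.95e-08). LY294002 raised Cxcl12 (0.53, adjusted p = 0.00143), the heparin-binding growth factor midkine, Mdk (0.44, adjusted p = 0.0112), and Wnt5a (0.43, adjusted p = 0.0397), with 5 genes called after median centring and 6 with the block. UO126 raised Mdk to 562 against 328 (0.78, adjusted p = 0.000233) and lowered Hbegf to 127 against 251 (-0.99, adjusted p = 0.00157). SB202190 raised Cxcl12 to 1005 against 607 (0.73, adjusted p = 0.000135) and Bmp2 to 139 against 84.6 (0.74, adjusted p = 0.0239) and lowered Slit2 (-0.56, adjusted p = 0.0279) and the matrix protein gene Tnc (-0.58, adjusted p = 0.0301), with 1 gene called after median centring. Over all genes, 9.47%, 3.45% and 3.52% were called with LY294002, UO126 and SB202190.

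The genes most like the members with large changes were found by the root mean square difference of the 4 log2 changes against DMSO, over 7199 genes. For Sdc2 these were Prc1, a cytokinesis gene (difference 0.07), and Ccne2, which encodes cyclin E2 (0.09). Prc1 was at -1.54 with TSA and Ccne2 at -1.46. For Gpc6 the closest were Cnpy2 (difference 0.06) and Sorbs2 (0.07), with log2 changes of -1.31 and -1.21 with TSA and 0.33 and 0.41 with LY294002. The 4 changes share the same DMSO arrays, and likeness is given as a description.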

How the data were processed

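The authors deposited 1 table of MAS5 signal intensity for 15 arrays of total RNA, 3 per group, scaled and summarized per probe set at a core facility. No detection calls were used, and precision is limited by 3 arrays per group. Probe sets were named from the platform annotation; positions and promoters came from RefSeq (GRCm38.p6). Values were log2 transformed after raising any signal under 1 to 1. After the group mean filter of 50, and without 64 control probe sets, limma 3.58.1 in R 4.3.3 fitted the 5 group means to all 15 arrays, with a variance trend and two-sided p-values adjusted by Benjamini-Hochberg within each of 10 comparisons. Differences are signed as the first group minus the second.

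Members and lists were chosen with earlier results of these data known. Named genes were the members, up to 4 genes per list and comparison with the smallest adjusted p, and the 2 genes most like each member called with an absolute log2 change of 1 or more (among genes bright in at least 1 group, with a mean signal of 200 or more). The labels number the arrays without saying what a number shares. Deviations of same-numbered arrays from their group means correlated at over 0.1 for all 3 numbers in 4 comparisons (LY294002 and UO126 against DMSO, 0.161 to 0.425; LY294002 against UO126, 0.175 to 0.339; TSA against SB202190, 0.138 to 0.186), which were read as paired from the data alone; there, block results are given where they change a call. The study's methods describe the arrays as independent experiments, and the p-values measure the spread between these arrays. Intervals are the log2 change ± 2 SE. Alternatives changed the scaling, filter, log floor, variance trend, groups fitted, block, probe set and arrays.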

Additional observations from a re-analysis of the deposited data

How the results depend on the processing

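Of the 687 values of the syndecan and glypican probe sets recomputed against DMSO under another setting, 609 kept their direction and side of the threshold, 37 lost the call, 5 gained it and 36 changed sign; of 300 between inhibitors, a set of alternatives chosen after seeing the data, 270 kept both and 30 lost the call. With the replicate number as a block, called probe sets numbered 3057 with LY294002 (1693 without it), 1032 with UO126 (584) and 1224 with SB202190 (619). The SB202190 and DMSO arrays were not read as paired, since their correlations (0.13, 0.095 and 0.235) did not all exceed 0.1. Called members numbered 2 with UO126 (1), and 7 pairs of neighbouring groups differed (4). In comparisons not read as paired, called members numbered 3 for LY294002 against SB202190 (2 without the block) and 5 for UO126 against SB202190 (3). They numbered 4 for TSA against LY294002 (3), and their number was unchanged for SB202190 and TSA against DMSO and for TSA against UO126. Called list genes with the block numbered 3 and 1 for heparan sulfate synthesis with LY294002 and UO126, 5 and 1 for other proteoglycans with UO126 and SB202190, 1 for shedding with SB202190 and 6 for ligands with LY294002. The block also called a second probe set of Sdc2 with UO126 (adjusted p = 0.0442); beyond these and the values given beside the results it changed no other call of a member in the paired comparisons with DMSO. For all 15 arrays, deviations from the group mean correlated most, averaged over arrays of the other groups, with those of their own number. Same-numbered arrays may therefore also share something in the comparisons not read as paired. The main calls came from the fit without the block, which leaves any such part in the spread. With median centring, called probe sets numbered 280 with UO126 and 210 with SB202190, and called members 0 with each; list counts were 1 for other proteoglycans and 0 for intracellular partners with UO126, 0 for shedding and 5 for ligands with LY294002, and 1 for ligands with SB202190. Centring also moved the LY294002 probe sets to 1021 higher and 170 lower, against 969 and 724. Quantile normalization gave 1 shedding gene with SB202190 and 1 partner with UO126. In fits of the 2 groups alone, 488, 245 and 181 probe sets and 0, 0 and 1 members were called with LY294002, UO126 and SB202190. By a 1.4-fold ratio of means, 1 member passed with LY294002, and 1359 and 1463 probe sets with UO126 and SB202190; with no filter, 410 probe sets were called with SB202190. With single arrays left out, called probe sets ranged from 849 to 1908, 321 to 417 and 213 to 541, and called members from 1 to 2, 0 to 1 and 1 to 2, with LY294002, UO126 and SB202190. The sign changes were in values not called. Median centring turned Sdc1 to 0.053 and 0.0332 with LY294002 and SB202190, Sdc3 to 0.0311 with LY294002 and Gpc4 to 0.0168 with SB202190, and quantile normalization turned Sdc1 to 0.0072 with SB202190. Another probe set gave -0.14, -0.18 or -0.0197 for Sdc1 with UO126 (mean of its probe sets -0.071), -0.32 for Sdc3 with UO126, and -0.82 and -0.90 for Sdc4 with LY294002 and TSA (means -0.39 and -0.29). With single arrays left out, log2 changes that turned ranged from -0.18 to 0.0572, -0.0127 to 0.19, -0.0804 to 0.13 and -0.15 to 0.0521 for Sdc1 with LY294002, UO126, SB202190 and TSA, from -0.0682 to 0.16 for Sdc2, -0.22 to 0.0496 for Sdc3 and -0.0934 to 0.19 for Sdc4 with LY294002, and from -0.13 to 0.0291, -0.14 to 0.0638 and -0.11 to 0.12 for Gpc3, Gpc4 and Gpc6 with SB202190. The cause of these differences was not tested. Signals under 50 and groups of 3 arrays limit what can be told apart.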
